A study of Mus musculus with 12 samples.

Results

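The nuclear-encoded genes of the respiratory chain were followed in mouse bone marrow-derived macrophages that lacked the enzyme Irg1 by their label, or were given an itaconate ester or hemin. The genes were taken by symbol: every gene whose name begins with Ndufa, Ndufb, Ndufc, Ndufs or Ndufv, with Uqcr, with Cox4 to Cox8, or with Atp5, and that was listed in at least 1 of the 12 libraries. This gave 57 of the 16145 genes listed in any library. By symbol, 40 belong to complex I, 4 to complex III, 7 to complex IV and 6 to complex V. The 40 complex I genes hold 31 subunit genes, 8 Ndufaf assembly factors and 1 entry, Ndufab1-ps, set apart by the pseudogene suffix of its symbol. Its deposited description, however, is that of a complex I subunit, AB1b. The assembly factors help to build the complex and are not part of it. Ndufa4 is counted with complex I by its name, although its protein is known as a subunit of complex IV.

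The respiratory chain sits in the inner mitochondrial membrane. Complex I takes electrons from NADH, complex III passes them from ubiquinol to cytochrome c, and complex IV hands them to oxygen, each pumping protons that drive ATP synthase, called complex V. Complex II, succinate dehydrogenase, also feeds the chain and is inhibited by itaconate, the metabolite that Irg1 (gene symbol Acod1) makes in activated macrophages, and heme is a cofactor of the cytochromes of complexes III and IV. Most subunits are encoded in the nucleus, where the factors NRF1, GABPA, YY1 and SP1 are known to act at many of their promoters.

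Because NRF1 is the factor best known for these genes, promoters were searched for its core letters, GCGCANGCG, on both strands. RefSeq promoter windows on build GRCm38.p6, which run from 250 bases before the gene start to 50 bases after it, matched 44 of the 57 genes. The NRF1 letters were in the windows of 13 of the 44 (29.5%), against 15.1% of the tested genes with a window and 7.03% of all 27025 genes in the table. The stretches below come from the 7 genes with a match that lies, with its 20 flanking bases, wholly before the start and inside the window. For each gene the first such match along the window is shown. Another such match of Ndufb4, which begins 79 bases before the start, is not shown. Each stretch is 49 bases long and read 5′ to 3′ on the strand of the gene, with bases that match the letters in capitals. The match of Atp5l, which begins 241 bases before the start, is not shown because its flank runs past the window.
Ndufa5, chr6:24527688-24527736, minus strand: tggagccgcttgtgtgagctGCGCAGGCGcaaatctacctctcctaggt
Ndufa8, chr2:36049339-36049387, minus strand: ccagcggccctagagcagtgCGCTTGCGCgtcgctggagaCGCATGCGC
Ndufa11, chr17:56717682-56717730, plus strand: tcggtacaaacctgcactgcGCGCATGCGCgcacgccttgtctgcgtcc
Ndufb4, chr16:37654531-37654579, minus strand: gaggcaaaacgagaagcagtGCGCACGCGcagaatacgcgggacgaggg
Ndufs5, chr4:123718256-123718304, minus strand: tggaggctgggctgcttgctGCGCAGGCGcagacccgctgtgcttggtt
Ndufaf4, chr4:24897950-24897998, plus strand: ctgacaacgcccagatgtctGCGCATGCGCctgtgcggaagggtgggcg
Atp5h, chr11:115420032-115420080, minus strand: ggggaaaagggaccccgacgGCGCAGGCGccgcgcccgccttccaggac

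The YY1 letters AANATGGC were in 11 of the 44 windows (25%), against 9.91% of tested genes. The GABPA letters CCGGAAG were in 9 (20.5%), against 20.1%, and the SP1 letters GGGCGG in 19 (43.2%), against 68.6% of tested genes. The antioxidant response letters TGANNNNGC, bound by the factor NRF2 (a different protein from NRF1), were in 18 (40.9%), against 48.1%. The cAMP response letters TGACGTCA were in 2 (4.54%), against 3.55%. A match to these letters is a description of the window and not a binding site.

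The 12 libraries formed 4 groups of 3. Bone marrow cells of Irg1KO and wild-type (WT) mice had been grown for 7 days with M-CSF, the growth factor that turns marrow cells into macrophages. The groups were Irg1KO cells with vehicle for 12 h, WT cells with 120 µM 4-octyl itaconate (4-OI, an itaconate ester that enters cells) for 15 h, WT cells with 15 µM hemin (oxidised heme) for 12 h, and WT cells with vehicle for 12 h. No Irg1KO cells received a compound, nothing in the labels describes the knockout allele, and the labels do not say whether replicates came from separate animals or cultures, so a p-value here reflects the variation among these 12 libraries, which may be technical.

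Library totals ranged between 9405112 and 22390882 expected counts, of which the 57 genes held 0.212 to 0.261%. The macrophage markers were present in every library (summed levels 23744 to 27401 TMM-normalised CPM, a read count scaled to a common library size), with Csf1r and Adgre1 at 21681 and 13466 counts or more. Most of that sum is Lyz2, and single markers moved: of the 10, 2 were higher and 2 lower in Irg1KO, 2 and 4 with 4-OI, and 3 and 2 with hemin, each against WT vehicle. Cx3cr1 averaged 31.4 CPM in Irg1KO, 4.85 with 4-OI, 215 with hemin and 194 with WT vehicle, and Mrc1 1559, 484, 1000.5 and 1496 CPM in the same order. Acod1, the targeted gene, was at 21.7, 13.6 and 26.3 CPM in the Irg1KO libraries, 32.7, 42.0 and 32.1 CPM with 4-OI, 66.0, 86.1 and 102 CPM with hemin, and 27.5, 30.5 and 25.01 CPM with WT vehicle. Irg1KO and WT vehicle libraries overlapped at this gene, so its level does not check the genotype, which is taken from the labels. Markers of stroma stood higher in the Irg1KO libraries, as given beside that comparison.

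Of the 57 genes, 53 passed the filter on low counts and were tested. The other 4 were Cox6b2, with at most 10 counts in any library, Cox7a1, with at most 3, Ndufa4l2, with 1 count in 1 WT vehicle library, and Ndufb4b, with 3.21 expected counts in 1 library with 4-OI. Several central subunits were not analysed here: Ndufv1, Uqcrc1, Uqcrfs1, Cox4i1, Cox6a1, Cox7a2, Cox8a, the F1 alpha and beta subunits of ATP synthase, and the subunits encoded by mitochondrial DNA. The sums given for a complex are therefore sums over the genes listed and not over the whole complex.

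On the FPKM scale, which divides by transcript length and allows genes to be set side by side, levels in WT vehicle libraries spanned a wide range. Cox6b1, which joins the monomers of the complex IV dimer, was highest at 276 ± 16.4 FPKM (SD, n = 3 here and below). Uqcrb, a small subunit near a ubiquinone site of complex III, followed at 209.9 ± 15.6 FPKM. Atp5g3, which encodes the c subunit of the ATP synthase rotor, was at 189.9 ± 23.4 FPKM and Cox5a, a matrix-side subunit of complex IV, at 182 ± 17.3 FPKM. Ndufa4 (178 ± 8.59 FPKM) and Cox6c (176 ± 9.51 FPKM) came next, and from Uqcrb down each gene lay within 1 SD of the next, so their order is not resolved. In complex I, Ndufa4 stood first and Ndufb1 second (129 ± 10.4 FPKM). The 8 assembly factors lay between 3.94 FPKM (Ndufaf7) and 22.7 FPKM (Ndufaf8), under every tested complex I subunit gene except Ndufa11 (12.5 ± 0.815 FPKM).

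**Figure D1:**
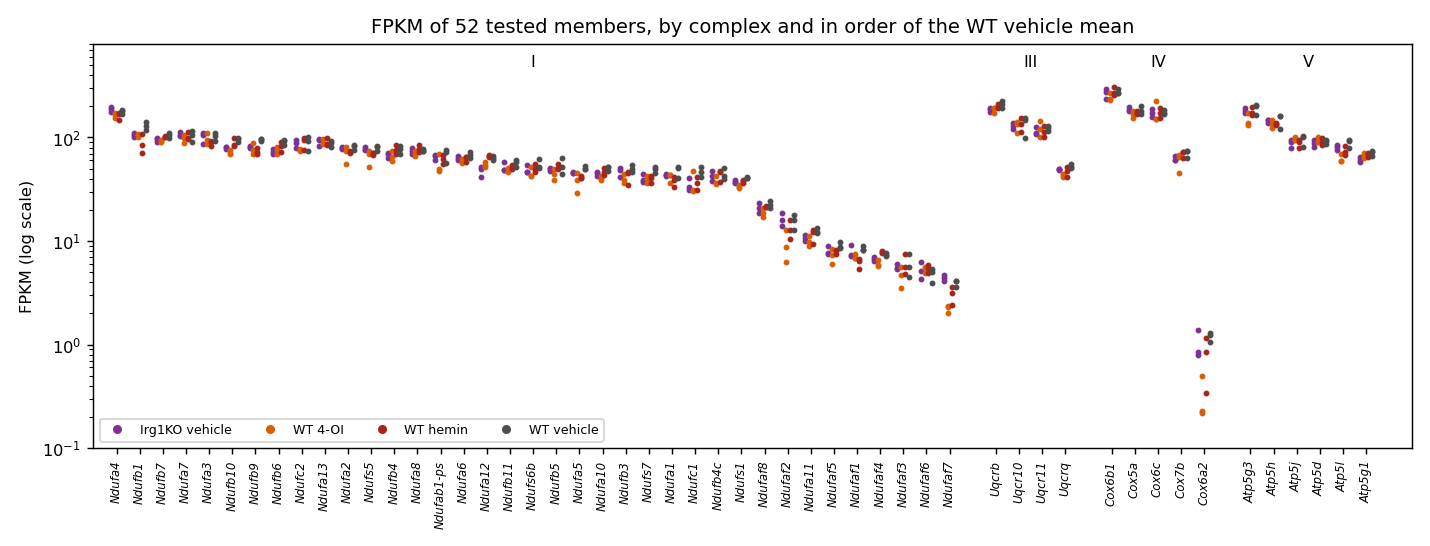
FPKM (log axis) of 52 tested genes in every library, by complex and in order of the WT vehicle mean, with 1 point per library coloured by group. Most subunits lie between 30 and 300 FPKM in all 4 groups, the Ndufaf assembly factors lie lower, and Cox6a2 lies near 1 FPKM.

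Tissue isoforms were low. Cox6a2, the heart and muscle form of a complex IV subunit, averaged 1.01 ± 0.327 FPKM in Irg1KO libraries, 0.317 ± 0.159 with 4-OI, 0.783 ± 0.414 with hemin and 1.19 ± 0.121 with WT vehicle. Cox6b2, the testis form of Cox6b1, averaged 0.807 ± 0.206 FPKM in WT vehicle libraries, and Cox7a1, another muscle form, 0.34 ± 0.223 FPKM. Ndufa4l2, a relative of Ndufa4 known to be raised in low oxygen, was at 0 counts in 11 of 12 libraries. For the rotor c subunit, whose genes encode the same mature protein, Atp5g1 was at 71.3 ± 3.9 FPKM beside Atp5g3 at 189.9. Counts of Atp5g1, Atp5h, Atp5l, Ndufb4 and Ndufb4c were not whole numbers in most libraries, so their reads were divided among similar sequences and their values are less certain.

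Levels of the whole group of genes stayed close across conditions. Summed over the 57 genes, the Irg1KO libraries held 2272, 2343 and 2269 CPM, the 4-OI libraries 2483, 2230 and 2266, the hemin libraries 2276, 2332 and 2433, and the WT vehicle libraries 2485, 2420.5 and 2382. The 3 Irg1KO libraries lay below all WT vehicle libraries, while the 4-OI and hemin libraries overlapped WT vehicle, with 4-OI replicate 1 at the WT vehicle level and replicates 2 and 3 below it. Summed FPKM were 3868, 3973 and 3947 in Irg1KO, 3925, 3522 and 3612 with 4-OI, 3752, 3902 and 4047 with hemin, and 4284, 4176 and 4119 with WT vehicle. On this scale the 3 WT vehicle libraries stood above all 9 others, so whether the sums of the 4-OI and hemin libraries overlap those of WT vehicle depends on the scale. By complex, the summed FPKM of complex I was 2099.5, 2132 and 2117 in Irg1KO, 2082, 1870 and 1909 with 4-OI, 2030, 2053 and 2141 with hemin, and 2306, 2298 and 2252 with WT vehicle. Complex I was therefore without overlap between WT vehicle and each other group in FPKM, and its CPM overlapped WT vehicle in 4-OI replicate 1 (1331 CPM) and hemin replicate 3 (1330 CPM), against 1316.5 to 1364 CPM with WT vehicle. Complex IV overlapped WT vehicle in every group on both scales: its summed FPKM ranged between 672 and 711.5 in Irg1KO, 611 and 669.8 with 4-OI, 654 and 727 with hemin, and 666 and 759 with WT vehicle. In bulk RNA, fewer cells of a type and less RNA per cell cannot be told apart.

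**Figure D2:**
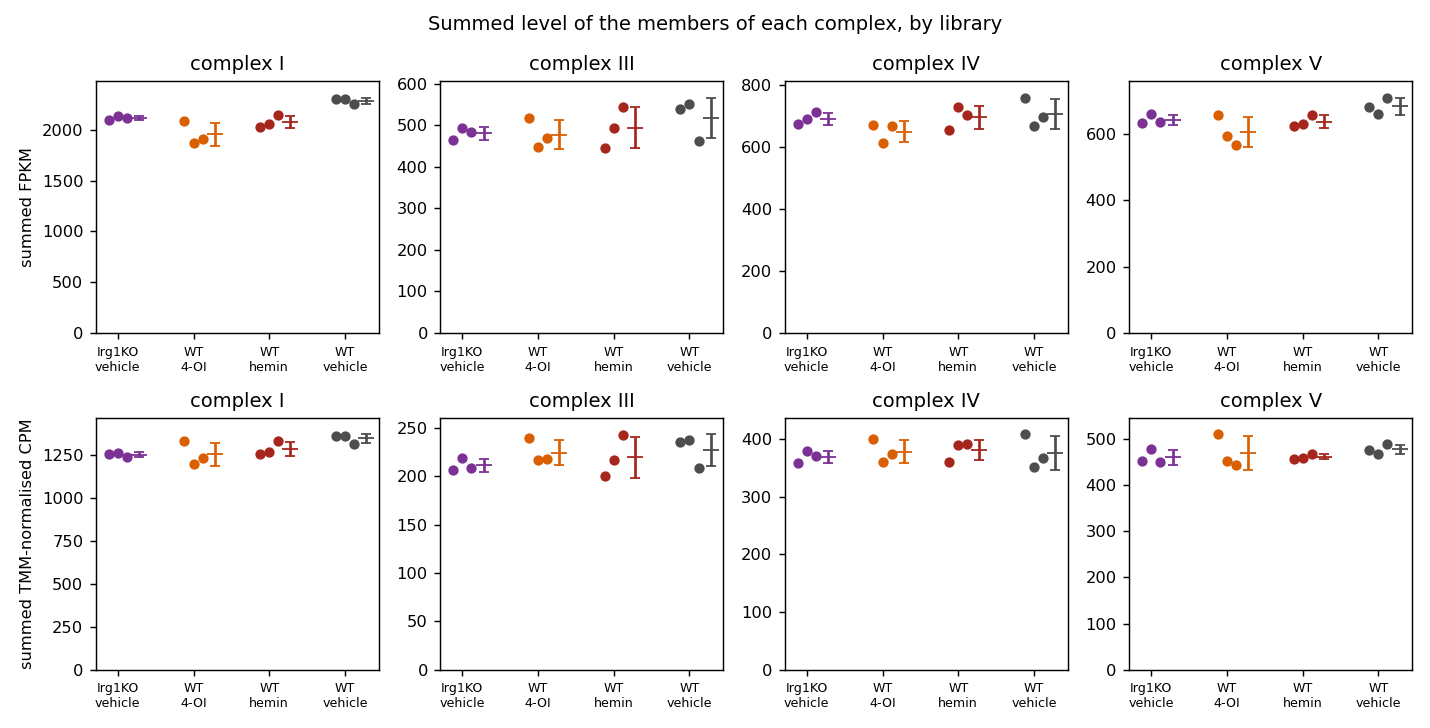
Summed level of the listed genes of each complex in every library (points), with mean and SD beside them, as FPKM (upper row) and TMM-normalised CPM (lower row). Complex I holds most of the signal, its WT vehicle libraries stand above all others in FPKM, and 4-OI replicate 1 lies above the other 2 replicates of its group in complexes I, III and V.

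The first comparison asks which of these genes differed between macrophages labelled Irg1KO and WT macrophages, both with vehicle. None of the 53 tested genes was higher and 10 were lower (18.9%) at an adjusted p under 0.05 in the quasi-likelihood test of edgeR. Over all 12148 genes tested, 39.8% were called, 23.5% higher and 16.3% lower, so the share called lower was near that of all genes. With DESeq2, 0 were higher and 10 lower, and at an unadjusted edgeR p under 0.05, 0 were higher and 12 lower. The median log2 fold change was -0.10 over the 53 genes, against -0.00033 over all genes, and 45 of the 53 lay below 0. Changes were small, with a median absolute log2 fold change of 0.107, against 0.159 over all genes tested. The 95% interval lay within 0.5 on the log2 scale in 49 of the 53. Here and in the comparisons below, that count of intervals was not made over all genes. In the same libraries the stroma markers summed to between 11792 and 13202 CPM, against 1948 to 2394 CPM in WT vehicle, with 8 of 8 tested markers higher, and contractile markers to between 1552 and 1849 CPM, against 366 to 417, with 7 of 7 higher. Col1a1, Col1a2 and Sparc were among those that rose, while the stroma markers Dcn and Lum had at most 9 and 4 counts in any library. Neutrophil-associated markers summed to 40.8 to 44.5 CPM in Irg1KO, against 82.6 to 93.7 CPM in WT vehicle, with 1 of 4 tested higher and 3 lower. The part of these markers in the changes of respiratory genes was not tested.

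Of the called genes, 8 belong to complex I, which holds 38 of the 53 tested genes. Ndufa12, an accessory subunit of the arm that reaches into the matrix, had 36.5, 43.3 and 44.9 CPM in Irg1KO libraries, against 53.1, 54.6 and 56.4 CPM in WT vehicle libraries. Every Irg1KO library was below every WT vehicle library. Its log2 fold change of -0.39 (SE 0.067, edgeR adjusted p = 8.5e-06) was the most negative of the called genes. Ndufs7, the core subunit that carries the last iron-sulfur cluster before ubiquinone, had 37.5, 33.0 and 31.2 CPM in Irg1KO libraries, against 41.1, 38.3 and 43.1 CPM in WT vehicle libraries, without overlap (log2 fold change -0.26, SE 0.077, edgeR adjusted p = 0.0061). Ndufs1, the large iron-sulfur subunit of the NADH-oxidising module, fell by less, with 95.1, 91.9 and 89.5 CPM in Irg1KO and 101, 99.8 and 99.95 CPM in WT vehicle libraries (log2 fold change -0.12, SE 0.05, edgeR adjusted p = 0.048).

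Of the 9 tested genes of the far end of the complex I membrane arm, 4 were called lower (44.4%), beside 3 of 8 of the matrix arm (37.5%) and 16.3% of all genes. Ndufb6 had 40.9, 38.4 and 36.2 CPM in Irg1KO libraries, against 45.2, 50.03 and 48.0 CPM in WT vehicle libraries (log2 fold change -0.31, SE 0.074, edgeR adjusted p = 0.00082). Ndufb10 had 41.1, 42.8 and 42.3 CPM in Irg1KO, against 51.4, 51.4 and 46.9 CPM in WT vehicle libraries (-0.25, SE 0.065, edgeR adjusted p = 0.002). Both genes, accessory subunits of this arm, were without overlap between the groups. Ndufb9 (-0.23, SE 0.07, edgeR adjusted p = 0.0085) and Ndufb1 (-0.32, SE 0.11, edgeR adjusted p = 0.017), also accessory subunits there, likewise did not overlap. The grouping by arm was chosen after the values were seen, does not cover all 29 tested complex I subunits and is a description. The far end did not stand out in each comparison with WT vehicle. With 4-OI, 1 of its 9 genes was lower (11.1%), against 25.0% of all genes, beside 3 of 8 of the matrix arm (37.5%). With hemin, 2 of the 9 were lower (22.2%), against 7.74% of all genes, beside 1 of 8 of the matrix arm (12.5%). Among the 9 tested subunits of the near part of the membrane arm, Ndufa10 was called (-0.15, SE 0.06, edgeR adjusted p = 0.046), and none of the 8 assembly factors was, by edgeR, by DESeq2 or at an unadjusted p under 0.05.

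Outside complex I, Uqcrb of complex III had 74.3, 77.5 and 69.6 CPM in Irg1KO libraries and 84.9, 88.8 and 74.9 CPM in WT vehicle libraries. The groups overlapped, with Irg1KO replicate 2 above WT vehicle replicate 3 (log2 fold change -0.17, SE 0.062, edgeR adjusted p = 0.024). Atp5g1 of complex V had 34.9, 39.9 and 36.9 CPM in Irg1KO libraries, against 40.5, 44.0 and 43.9 CPM in WT vehicle libraries (-0.20, SE 0.068, edgeR adjusted p = 0.019). Its partner gene Atp5g3 had a log2 fold change of -0.011 with a 95% interval of -0.19 to 0.17. None of the 5 tested complex IV genes was called by edgeR, by DESeq2 or at an unadjusted p under 0.05: Cox5a was at 0.056 (interval -0.075 to 0.19) and Cox6b1 at -0.055 (-0.22 to 0.11). Ndufa4 was not called either (0.068, interval -0.058 to 0.19).

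Calls of Ndufa12, Ndufb6, Ndufb9, Ndufb10 and Ndufs7 held in every alternative run, including each library left out. The other calls were lost without single libraries, and those of Ndufa10 and Ndufs1 also with a filter of 10 counts in 6 libraries (adjusted p = 0.0552 and 0.0599), and that of Ndufb1 on log2(FPKM + 0.1) (adjusted p = 0.0525). The adjusted p of Ndufs1 was 0.101 without Irg1KO replicate 2, 0.14 without Irg1KO replicate 3, and 0.0909, 0.0657 and 0.0666 without WT vehicle replicates 1, 2 and 3. That of Ndufa10 was 0.0594 and 0.204 without Irg1KO replicates 1 and 2, and 0.167 and 0.0969 without WT vehicle replicates 2 and 3. That of Uqcrb was 0.0516 and 0.116 without Irg1KO replicates 1 and 3, and 0.0628 and 0.162 without WT vehicle replicates 1 and 2. That of Atp5g1 was 0.118 without Irg1KO replicate 1, and 0.0728 and 0.0505 without WT vehicle replicates 2 and 3, and that of Ndufb1 was 0.0503 without Irg1KO replicate 2 and 0.108 without WT vehicle replicate 1.

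**Figure D3:**
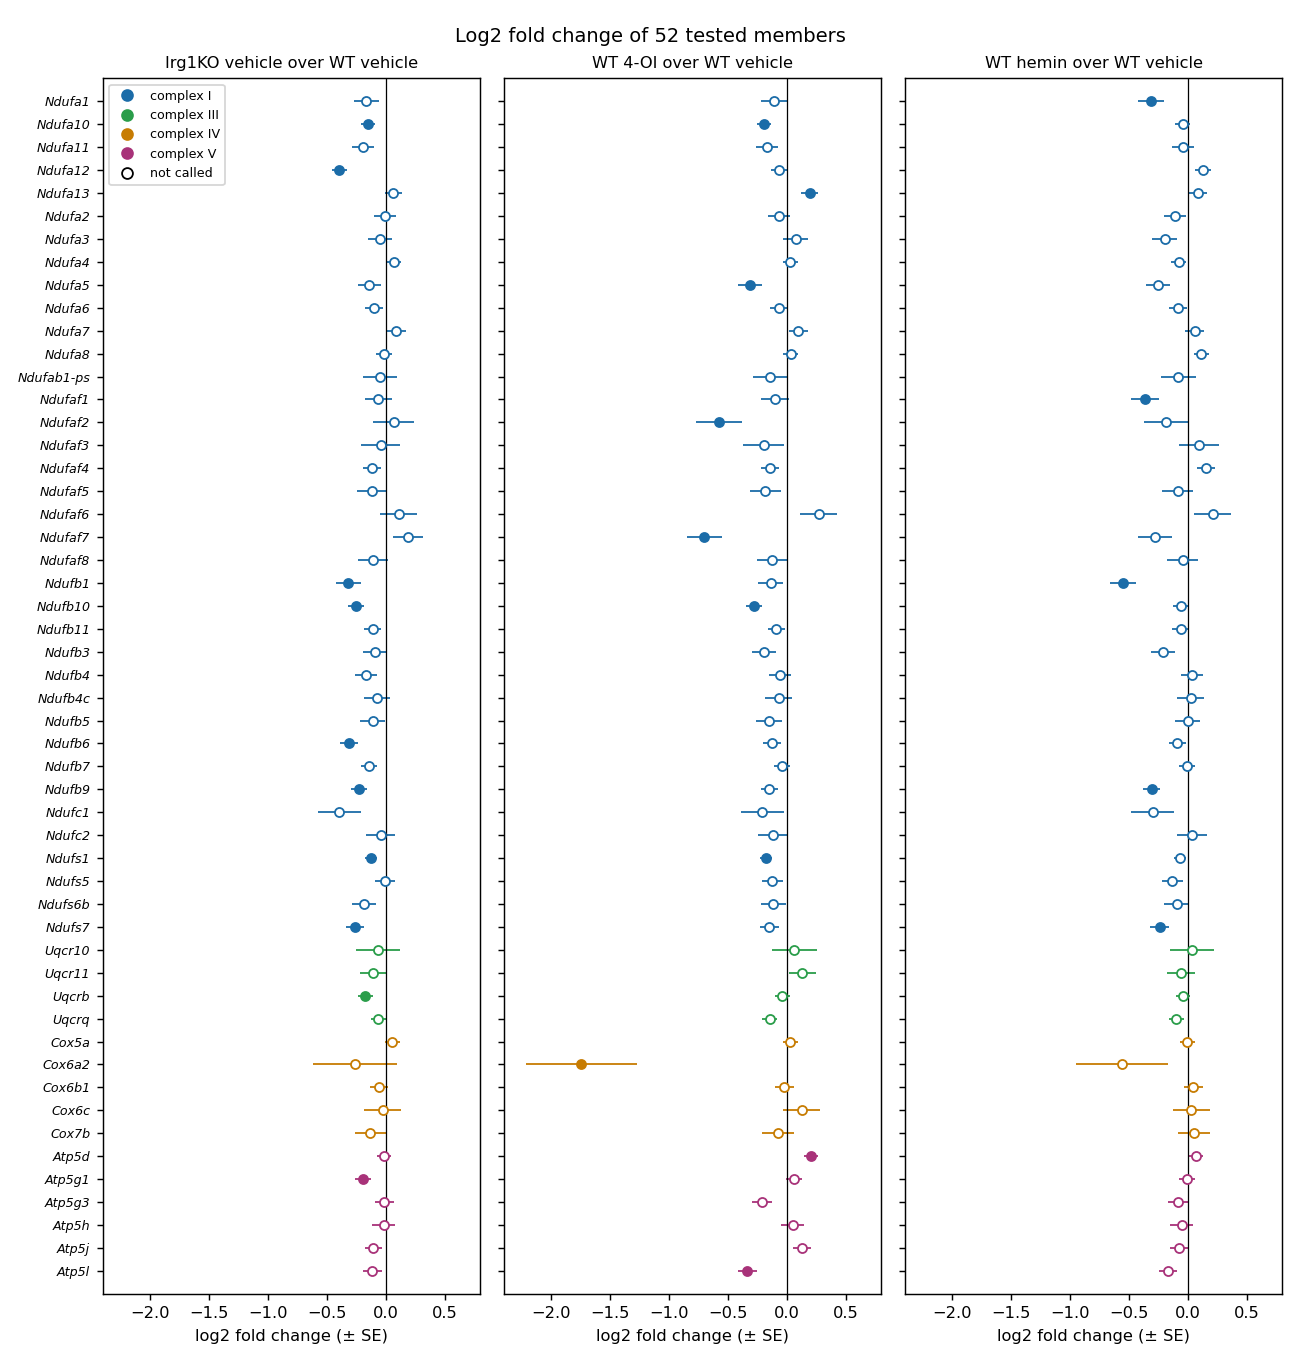
Log2 fold change of 52 tested genes over WT vehicle with standard errors, for Irg1KO vehicle (left), 4-OI (middle) and hemin (right), coloured by complex, filled where the edgeR adjusted p was under 0.05. Filled points lie left of 0 in the left and right panels, and in the middle panel all but Ndufa13 and Atp5d do. The 3 panels share the same WT vehicle libraries.

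The second comparison asks what 4-OI did to these genes in WT macrophages. Of the 53, 2 were higher and 9 lower, while over all genes tested 50.4% were called, 25.4% higher and 25.0% lower. The shares of the 53 were 3.77% and 17%. The median log2 fold change was -0.12, against -0.0031 over all genes, with 39 of 53 below 0 and the 95% interval of 45 within 0.5. The split depends on scale: with tests on log2(FPKM + 1) it was 0 higher and 27 lower, with the median at -0.25 while that of all genes moved to -0.11, and with upper-quartile scaling it was 1 higher and 12 lower. Leaving out 4-OI replicate 1 gave 0 higher and 16 lower, and leaving out WT vehicle replicate 3 gave 1 higher and 10 lower. The share of all genes called in these other runs is not given here. Their counts, the 27 lower among them, therefore cannot be set against the 25.0% above. Because exposure lasted 15 h for 4-OI but 12 h for vehicle, compound and time cannot be told apart. The neutrophil-associated markers summed to 338 to 360 CPM with 4-OI, against 82.6 to 93.7 with WT vehicle (2 of 4 tested higher, mostly Mmp8, while Elane, Mpo and Camp had at most 14 counts in any library), and endothelial markers to 7.67 to 8.8 CPM, against 33.3 to 38.4 (2 of 3 tested lower). Contractile markers summed to 453 to 509.6 CPM with 4-OI, against 366 to 417 with WT vehicle (3 of 7 tested higher and 2 lower), and 4 of 10 macrophage markers were lower, Cx3cr1, Mrc1 and Cd14 (44.8 CPM with 4-OI, against 71.1 with WT vehicle) among them. Stroma markers summed to 2260 to 2518 CPM with 4-OI, against 1948 to 2394 CPM with WT vehicle (2 of 8 tested higher and 2 lower). The part of all these markers in the result was not tested.

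In the matrix arm of complex I, the core subunit Ndufs1 had 87.4, 87.0 and 92.8 CPM with 4-OI, against 101, 99.8 and 99.95 CPM with WT vehicle. No 4-OI library reached the WT vehicle range (log2 fold change -0.18, SE 0.051, edgeR adjusted p = 0.0041). Ndufa5, an accessory subunit beside the ubiquinone module, had 18.2, 13.7 and 21.1 CPM with 4-OI and 22.7, 21.0 and 20.8 CPM with WT vehicle. Replicate 3 with 4-OI lay inside the WT vehicle range (-0.31, SE 0.10, edgeR adjusted p = 0.011), and without 4-OI replicate 2 the change was -0.14 (adjusted p = 0.261), and without WT vehicle replicate 1 it was -0.27 (adjusted p = 0.0513).

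In the membrane arm, Ndufb10 had 39.7, 43.4 and 40.7 CPM with 4-OI, against 51.4, 51.4 and 46.9 CPM with WT vehicle, without overlap (log2 fold change -0.28, SE 0.067, edgeR adjusted p = 0.0007). Ndufa10, in the near part of that arm, was lower as well (-0.19, SE 0.061, edgeR adjusted p = 0.0081; 0.055 without WT vehicle replicate 2). Ndufa13, an accessory subunit also known as the apoptosis-linked protein GRIM-19, went the other way, with 56.0, 49.9 and 49.7 CPM with 4-OI, against 46.5, 47.6 and 41.5 CPM with WT vehicle (0.19, SE 0.074, edgeR adjusted p = 0.03). This increase did not pass on the FPKM scale (0.057, adjusted p = 0.549) or with upper-quartile scaling (0.16, adjusted p = 0.0751), nor without 4-OI replicate 1 (adjusted p = 0.198) or WT vehicle replicate 3 (adjusted p = 0.138).

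Among the called complex I genes, the largest change with 4-OI was in an assembly factor. Ndufaf7, an arginine methyltransferase that acts in complex I assembly, had 4.76, 4.16 and 4.94 CPM with 4-OI, against 6.73, 7.87 and 7.7 CPM with WT vehicle. The groups did not overlap (log2 fold change -0.70, SE 0.15, edgeR adjusted p = 0.00016), and the call held in every alternative. Ndufaf2, which holds the place later taken by Ndufa12, had 7.67, 5.17 and 3.76 CPM with 4-OI and 7.03, 9.64 and 8.48 CPM with WT vehicle. Replicate 1 with 4-OI lay inside the WT vehicle range (-0.58, SE 0.195, edgeR adjusted p = 0.018), and the call was lost without 4-OI replicate 2 (adjusted p = 0.093) or 3 (0.069) and without WT vehicle replicate 2 (0.102).

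In complex V, Atp5d, the delta subunit of the central stalk, had 132, 117 and 117 CPM with 4-OI, against 107, 102 and 110 CPM with WT vehicle (log2 fold change 0.20, SE 0.058, edgeR adjusted p = 0.0041). It was higher in each 4-OI library, but at 0.053 on the FPKM scale (adjusted p = 0.52) and at 0.14 without 4-OI replicate 1 (adjusted p = 0.061). Atp5l, the g subunit of the membrane part where ATP synthase dimers meet, had 49.2, 41.2 and 41.2 CPM with 4-OI, against 59.9, 50.1 and 57.5 CPM with WT vehicle, without overlap (-0.34, SE 0.08, edgeR adjusted p = 0.000845). Atp5g3 was at -0.21 and not called (SE 0.086, edgeR adjusted p = 0.0578), with 150, 118.5 and 122 CPM with 4-OI and 135, 159.7 and 157 CPM with WT vehicle. Its adjusted p was 9.2e-05 without 4-OI replicate 1 and 0.0042 without WT vehicle replicate 1, and it was also called with DESeq2 and on the FPKM scale (adjusted p = 0.0244 and 0.0102).

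In complex IV, Cox6a2 had 6, 3 and 2 counts with 4-OI, against 18, 24 and 10 counts with WT vehicle. The groups did not overlap, and the log2 fold change of -1.74 (SE 0.47, edgeR adjusted p = 0.0021) rests on these few reads. The abundant complex IV genes were not called: Cox5a was at 0.029 (95% interval -0.10 to 0.16) and Cox6b1 at -0.022 (-0.19 to 0.14). None of the 4 complex III genes was called by edgeR or DESeq2, and 1 was lower at an unadjusted p under 0.05. Medians by complex were -0.12 for complex I, 0.011 for complex III, -0.022 for complex IV and 0.055 for complex V, and on the FPKM scale -0.26, -0.11, -0.17 and -0.098, beside -0.11 for all genes.

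**Figure D4:**
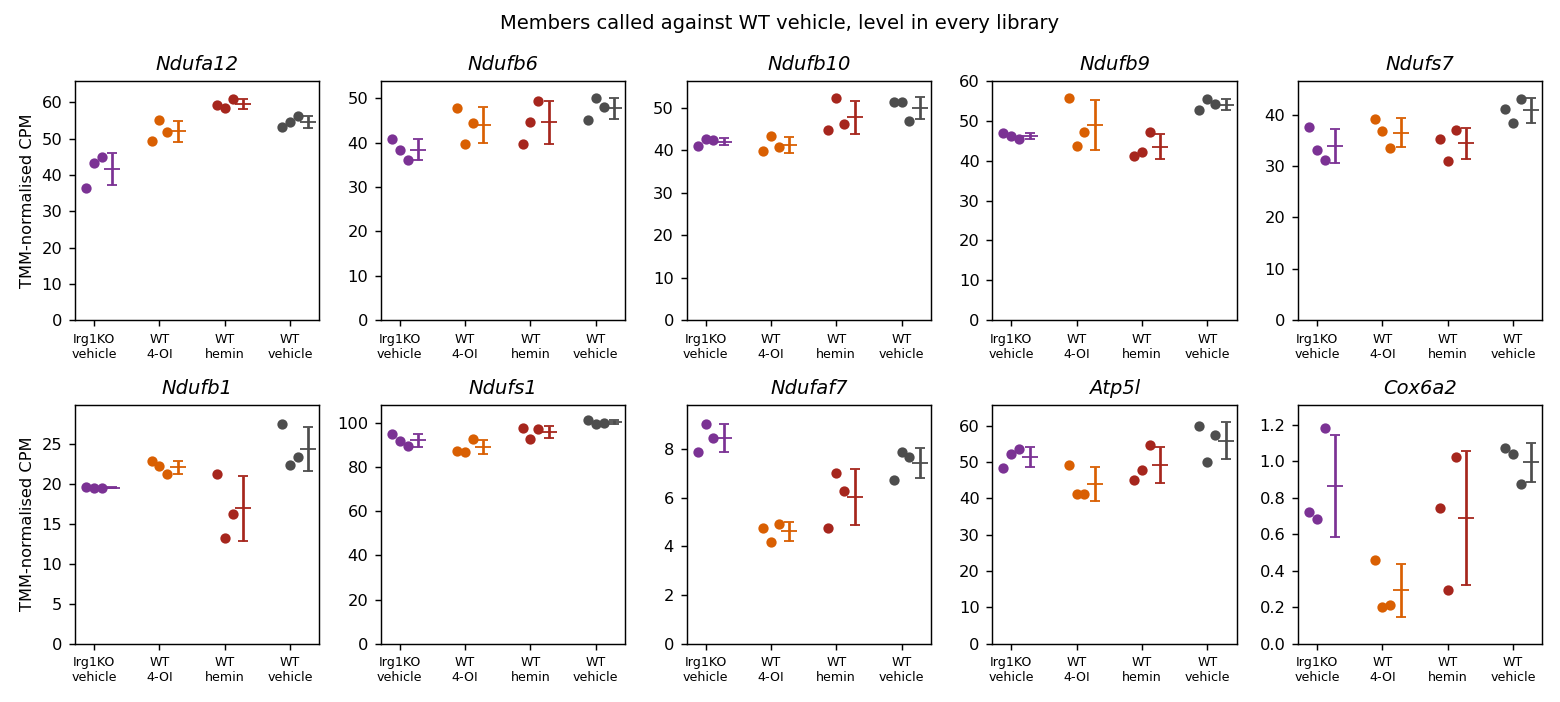
TMM-normalised CPM of 10 called genes in every library (points), with the mean and SD of each group beside them, for Irg1KO vehicle, 4-OI, hemin and WT vehicle. Ndufa12 is lowest in Irg1KO, Ndufb10 in Irg1KO and 4-OI, Ndufb1 in hemin and Irg1KO, and Ndufaf7 in 4-OI.

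The third comparison asks what hemin did at 12 h. None of the 53 genes was higher by edgeR, by DESeq2 or at an unadjusted p under 0.05, and 5 were lower (9.43%), all of complex I. Over all genes tested 17.2% were called, 9.48% higher and 7.74% lower, so the share called lower was near that of all genes. The median log2 fold change was -0.064, against -0.006 over all genes, with 38 of 53 below 0 and 45 intervals within 0.5. The count of lower genes was 2 without hemin replicate 2 or without WT vehicle replicate 1, 3 without hemin replicate 1, and 3 with DESeq2. Stroma markers summed to 1795 to 2347 CPM with hemin, against 1948 to 2394 CPM with WT vehicle (0 of 8 tested higher and 2 lower). Contractile markers summed to 332 to 418 CPM with hemin, against 366 to 417 CPM with WT vehicle (0 of 7 tested higher and 1 lower). Endothelial markers summed to 15.8 to 16.9 CPM with hemin, against 33.3 to 38.4 CPM with WT vehicle (1 of 3 tested lower), and neutrophil-associated markers to 94.99 to 104 CPM, against 82.6 to 93.7 CPM (1 of 4 tested higher), both without overlap. Each sum was mostly 1 gene. Kdr averaged 11.1 CPM with hemin and 28.6 CPM with WT vehicle, while Cdh5 and Pecam1 overlapped between the groups. Mmp8 averaged 91.9 CPM with hemin and 79.5 CPM with WT vehicle. The part of these markers, and of the macrophage markers given above, was not tested.

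Ndufb1 had 21.3, 13.3 and 16.3 CPM with hemin, against 27.5, 22.4 and 23.4 CPM with WT vehicle. The groups did not overlap, although hemin replicate 1 was close to WT vehicle (log2 fold change -0.55, SE 0.11, edgeR adjusted p = 0.00061). Ndufb9 had 41.3, 42.2 and 47.2 CPM with hemin, against 52.7, 55.5 and 54.1 CPM with WT vehicle (-0.31, SE 0.072, edgeR adjusted p = 0.0018). These calls held in every alternative run. Ndufs7 had 35.2, 31.0 and 37.0 CPM with hemin, against 41.1, 38.3 and 43.1 CPM with WT vehicle (-0.24, SE 0.078, edgeR adjusted p = 0.027), and its adjusted p was 0.216 without hemin replicate 2, 0.0819 without WT vehicle replicate 1 and 0.109 without WT vehicle replicate 3.

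Ndufaf1, an assembly factor of the membrane arm, had 7.42, 9.0 and 9.51 CPM with hemin, against 11.9, 10.9 and 10.9 CPM with WT vehicle (log2 fold change -0.36, SE 0.12, edgeR adjusted p = 0.033). Ndufa1, a small membrane-arm subunit, had 14.6, 12.2 and 15.8 CPM with hemin and 19.3, 18.5 and 14.4 CPM with WT vehicle, with WT vehicle replicate 3 inside the hemin range (-0.32, SE 0.11, edgeR adjusted p = 0.041). Both calls were lost with DESeq2 (adjusted p = 0.0616 for Ndufaf1 and 0.0763 for Ndufa1). The adjusted p of Ndufaf1 was 0.147 and 0.0684 without hemin replicates 1 and 2, and 0.128 and 0.0514 without WT vehicle replicates 1 and 2. That of Ndufa1 was 0.0552 and 0.293 without hemin replicates 1 and 2, and 0.204 and 0.149 without WT vehicle replicates 1 and 2. None of the 4, 5 and 6 tested genes of complexes III, IV and V was called by edgeR or DESeq2, and 1, of complex V, was lower at an unadjusted p under 0.05. With so few genes tested, calls confined to complex I do not set it apart from the other complexes. With hemin, Cox5a lay at -0.0072 (95% interval -0.14 to 0.13), and complex medians were -0.073, -0.051, 0.028 and -0.068 for complexes I, III, IV and V.

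**Figure D5:**
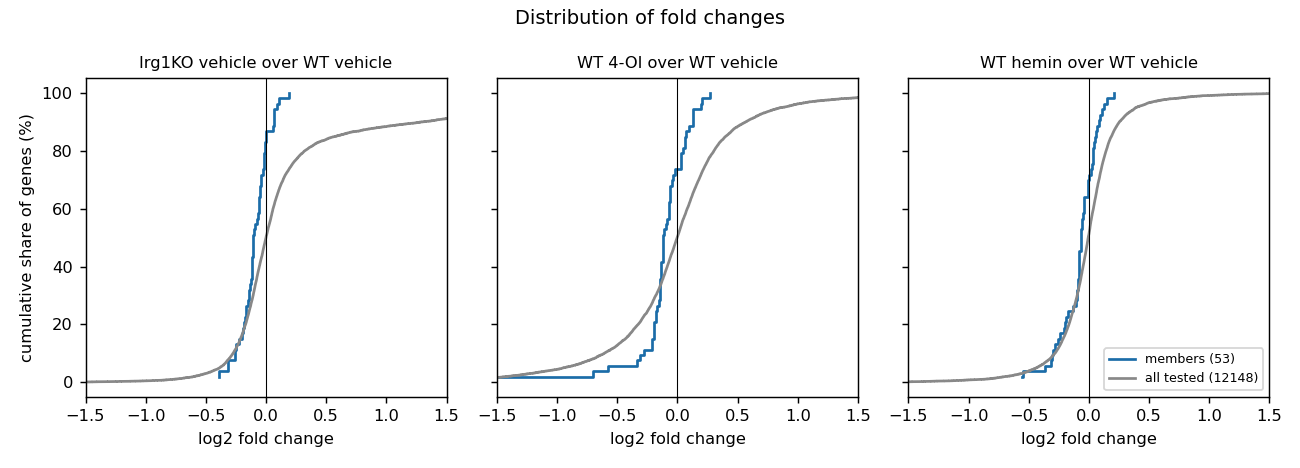
Cumulative share of genes (%) against log2 fold change over WT vehicle for the 53 tested respiratory genes (blue) and all 12148 genes tested (grey), in Irg1KO vehicle, 4-OI and hemin. The blue curves are steeper than the grey ones and cross 50% left of 0, at medians of -0.10, -0.12 and -0.064; the axis ends at 1.5 either way.

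4-OI and hemin were also set against each other directly, with 15 h for 4-OI and 12 h for hemin, so that compound and time again cannot be told apart. Of the 53 genes, 3 were higher and 4 lower with 4-OI, where over all genes tested 42.3% were called, 20.6% higher and 21.7% lower. The median was -0.033, against 0.0015 over all genes. The split was 5 higher and 4 lower with RLE scaling, 1 and 6 with upper-quartile scaling and 0 and 11 on the FPKM scale. It was 1 higher and 6 lower without 4-OI replicate 1, 1 and 5 without hemin replicate 2, and 2 and 2 without hemin replicate 3. Neutrophil-associated markers summed to 338 to 360 CPM with 4-OI, against 94.99 to 104 CPM with hemin (2 of 4 tested higher), endothelial markers to 7.67 to 8.8 CPM, against 15.8 to 16.9 CPM (2 of 3 lower), and contractile markers to 453 to 509.6 CPM, against 332 to 418 CPM (3 of 7 higher). Stroma markers summed to 2260 to 2518 CPM with 4-OI, against 1795 to 2347 CPM with hemin (2 of 8 higher and 1 lower). Of the macrophage markers, 3 of 10 were lower with 4-OI. The part of these markers was not tested. Ndufb1 had 22.9, 22.3 and 21.3 CPM with 4-OI, against 21.3, 13.3 and 16.3 CPM with hemin (log2 fold change 0.41, SE 0.12, edgeR adjusted p = 0.0049). The lowest 4-OI library and the highest hemin library were alike, and without hemin replicate 2 the adjusted p was 0.0655.

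Ndufaf4, an assembly factor of the matrix arm, had 24.9, 21.7 and 22.1 CPM with 4-OI, against 28.7, 28.1 and 27.6 CPM with hemin. The groups did not overlap, and the call (log2 fold change -0.29, SE 0.082, edgeR adjusted p = 0.0036) held in every alternative. Ndufb10 (-0.21, SE 0.069, edgeR adjusted p = 0.012) and Ndufa12 (-0.19, SE 0.068, edgeR adjusted p = 0.021) were lower with 4-OI without overlap, and Ndufaf7 was lower with overlap (-0.42, SE 0.16, edgeR adjusted p = 0.034). Atp5j, the F6 subunit of the stalk that holds the ATP synthase head still, was higher with 4-OI (0.21, SE 0.077, edgeR adjusted p = 0.029), as was Ndufa3, a small membrane-arm subunit (0.27, SE 0.11, edgeR adjusted p = 0.046). These calls were less firm. Ndufb10 had an adjusted p of 0.0586 without 4-OI replicate 1 and 0.128 without hemin replicate 2. Ndufa12 had 0.112 and 0.0511 without 4-OI replicates 1 and 3, 0.0761 without hemin replicate 3 and 0.0669 with DESeq2. Ndufaf7 had 0.055 and 0.155 without 4-OI replicates 1 and 2, 0.205 and 0.0922 without hemin replicates 2 and 3, and 0.0994 with DESeq2. Atp5j had 0.0569, 0.0534 and 0.0873 without 4-OI replicates 1, 2 and 3, and 0.139 and 0.0608 without hemin replicates 2 and 3. Ndufa3 had 0.299 and 0.0589 without 4-OI replicates 1 and 2, and 0.118, 0.117 and 0.051 without hemin replicates 1, 2 and 3. On the FPKM scale, Atp5j (0.15), Ndufa3 (0.13) and Ndufb1 (0.27) did not pass, with adjusted p of 0.212, 0.309 and 0.0568. Atp5j and Ndufa3 also did not pass with upper-quartile scaling (edgeR adjusted p = 0.05003 and 0.0728).

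Across the 4 comparisons 23 of the 53 genes were called at least once and 30 never. In the order given, 18.9%, 20.8%, 9.43% and 13.2% of the 53 were called, against 39.8%, 50.4%, 17.2% and 42.3% of all genes tested. The 53 were thus called less often than all genes in each comparison. The share of all genes called at least once is not given here. The 3 comparisons with WT vehicle share its libraries, so their values are given side by side and not as separate evidence. Ndufb10 was at -0.25 in Irg1KO, -0.28 with 4-OI and -0.062 with hemin. Ndufb9 was at -0.23, -0.15 and -0.31 in the same order, Ndufs7 at -0.26, -0.15 and -0.24, and Ndufb1 at -0.32, -0.14 and -0.55. Ndufa12 was at -0.39 in Irg1KO, -0.068 with 4-OI and 0.13 with hemin, and Ndufs1 at -0.12, -0.18 and -0.067. No gene was called against WT vehicle in all 3 comparisons.

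Other genes of the pathway were read from lists chosen by function. Of complex II and cytochrome c genes, Sdhc, Cyc1 and Cycs were tested. In Irg1KO, Cycs, cytochrome c itself, had 153, 166 and 169 CPM, against 181, 196 and 179.6 CPM in WT vehicle (log2 fold change -0.19, SE 0.052, edgeR adjusted p = 0.0026), and Sdhc, a membrane anchor of succinate dehydrogenase, fell as well (-0.15, SE 0.052, edgeR adjusted p = 0.019). With 4-OI, Cyc1, the cytochrome c1 of complex III, rose (0.22, SE 0.062, edgeR adjusted p = 0.0031) while Sdhc fell (-0.14, SE 0.053, edgeR adjusted p = 0.029). With hemin, Cyc1 rose by 0.18 on the log2 scale (SE 0.062, edgeR adjusted p = 0.046), with overlap between the groups. That call was lost with DESeq2 (adjusted p = 0.108), with RLE or upper-quartile scaling (0.0618 and 0.0701), in a fit of only these groups (0.0881), on the FPKM scale (0.227), without hemin replicates 2 or 3 (0.188 and 0.0848) and without WT vehicle replicates 2 or 3 (0.279 and 0.131). The call of Sdhc with 4-OI was lost with DESeq2 (adjusted p = 0.0732), without 4-OI replicate 2 (0.0957) and without WT vehicle replicates 1 or 2 (0.107 and 0.0657). That of Sdhc in Irg1KO was lost without Irg1KO replicate 3 (0.0764) or WT vehicle replicate 1 (0.0658). That of Cyc1 with 4-OI was lost on the FPKM scale (0.317) and without WT vehicle replicate 2 (0.0509).

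Of 28 tested assembly factors of the chain outside the symbol rule, 0 were higher and 2 lower (7.14%) in Irg1KO, 2 higher (7.14%) and 7 lower (25%) with 4-OI, and 1 higher and 1 lower (3.57% each) with hemin. Of all genes, 16.3% were lower in Irg1KO, 25.0% lower and 25.4% higher with 4-OI, and 7.74% lower and 9.48% higher with hemin. In these 3 comparisons no share of the list stood above that of all genes. With 4-OI against hemin, 1 was higher (3.57%) and 8 lower (28.6%), against 20.6% and 21.7% of all genes. Cox15, an enzyme of heme a synthesis, had 34.0, 42.6 and 39.2 CPM with 4-OI, against 50.4, 49.5 and 47.5 CPM with WT vehicle (log2 fold change -0.35, SE 0.069, edgeR adjusted p = 5.5e-05), and was at -0.19 in Irg1KO (SE 0.067, edgeR adjusted p = 0.024). Atpaf1, a chaperone of the ATP synthase head, fell with 4-OI (-0.42, SE 0.089, edgeR adjusted p = 0.00013) and in Irg1KO (-0.23, SE 0.085, edgeR adjusted p = 0.029). Both Irg1KO calls were lost without single libraries: for Cox15 without Irg1KO replicate 2 (adjusted p = 0.0966) and WT vehicle replicates 1 and 2 (0.0674 and 0.0529), and for Atpaf1 without Irg1KO replicates 1 and 3 (0.114 and 0.0694) and WT vehicle replicates 2 and 3 (0.182 and 0.0909). Coa5, a complex IV assembly factor, had 258, 245 and 253 CPM with hemin, against 209.9, 217 and 202 CPM with WT vehicle (0.26, SE 0.046, edgeR adjusted p = 5e-05). It was also called higher with 4-OI, at 240, 226 and 233 CPM, but that call was lost on the FPKM scale (0.013, adjusted p = 0.823).

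Of 14 tested regulators of respiratory genes, 0 were higher and 3 lower (21.4%) in Irg1KO, 2 higher (14.3%) and 4 lower (28.6%) with 4-OI, and 1 higher (7.14%) and 0 lower with hemin. The shares called lower lay near the 16.3% and 25.0% of all genes in Irg1KO and with 4-OI. Ppargc1b, a coactivator of mitochondrial gene expression, had 2.45, 2.69 and 2.15 CPM with 4-OI, against 5.48, 6.01 and 8.22 CPM with WT vehicle. It was less than the lowest WT vehicle value in each 4-OI library (log2 fold change -1.38, SE 0.19, edgeR adjusted p = 9.6e-08). Ppargc1b was also called lower in Irg1KO, at 4.19, 4.94 and 5.61 CPM, with overlap. That call was lost with DESeq2 (adjusted p = 0.0821) and on the FPKM scale (0.0884), among other runs. Without Irg1KO replicates 1 or 2 the adjusted p was 0.206 and 0.0969, and without WT vehicle replicate 3 it was 0.269. Its relative Pprc1 had 87.6, 98.2 and 96.5 CPM with 4-OI, against 76.5, 76.0 and 78.2 CPM with WT vehicle (0.29, SE 0.057, edgeR adjusted p = 5.2e-05), and also rose with hemin (0.20, SE 0.058, edgeR adjusted p = 0.013). On the FPKM scale neither passed (adjusted p = 0.0575 with 4-OI and 0.168 with hemin), nor did the hemin call without hemin replicate 2 (0.101). Nrf1 itself had 28.1, 26.0 and 27.4 CPM in Irg1KO libraries and 25.1, 24.4 and 22.2 CPM in WT vehicle libraries; the groups did not overlap but the gene was not called (0.17, SE 0.076, edgeR adjusted p = 0.0679), and it was at -0.039 with 4-OI and -0.079 with hemin. Tfam, the mitochondrial transcription factor, was not called in any of the 3 comparisons (-0.047, -0.12 and 0.045, edgeR adjusted p = 0.693, 0.257 and 0.791). Of 4 tested supercomplex and hypoxia factors, 0 were called against WT vehicle by edgeR or DESeq2, and at an unadjusted p under 0.05 there were 0 in Irg1KO, 1 higher with 4-OI and 1 higher with hemin.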

How the data were processed

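The authors deposited 1 file per library. The tools named per the submitters' processing notes are RSEM, Bowtie2, StringTie and HISAT2, and the builds GRCm39 and mm39, with no role for each; versions are not given in the sources used here. The deposited expected counts, per the file headers, are estimated reads or fragments per gene and were rounded to whole numbers for testing. The deposited FPKM, per the file headers, are scaled by transcript length and library total, and the deposited length column was read only for a median length: 694 nucleotides over the members against 3051 over all genes tested. A gene missing from a file counted as 0. Tests ran in R 4.3.3 with edgeR 4.0.16: filterByExpr (12148 genes kept), TMM scaling (factors 0.944 to 1.05), 1 quasi-likelihood fit over all 12 libraries with a coefficient per group, and Benjamini-Hochberg adjustment over all genes tested, called under 0.05. The standard error is the log2 fold change over the square root of F. Libraries of 1 group differed by 4.71% (edgeR's biological coefficient of variation); their chi-square over degrees of freedom was 2.4 to 4.88, where counting error alone gives about 1.

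Alternatives were RLE and upper-quartile factors, DESeq2 1.42.0, limma 3.58.1 on log2(FPKM + 1) and log2(FPKM + 0.1), removal of the filter, a stricter one (10 counts in 6 libraries), a replicate block, fits of only the groups compared, members with whole counts, subunits only, and each replicate left out. Log2 FPKM fold changes include the pseudocount and understate changes of low genes. Promoter windows came from RefSeq tables on GRCm38.p6, used for sequence only. The symbol rule, gene lists and marker lists were chosen with earlier results of these data known. Named were a fixed set of core subunits and isoforms, up to 3 called members per comparison, complex and direction in order of adjusted p, and up to 3 called genes per list; the other called members, Nrf1 and Tfam, and the arms of complex I, were named after values were seen. Summaries used Python 3.11.15 with pandas 2.3.3; matplotlib 3.10.9 drew the plots. The values of 1 member are not reported here, although it stays in the counts, medians and sums.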

Additional observations from a re-analysis of the deposited data

How the results depend on the processing

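Of 32 calls of single members, 13 held in all alternatives, 19 were lost in at least 1, and 0 changed direction. Lower members in Irg1KO numbered 7 to 10 and higher 0 with single replicates left out, with medians of -0.13 to -0.068. For 4-OI against WT vehicle, higher members were 1 with upper-quartile factors and 0 on either FPKM scale, lower members 27 on both, and the median -0.25 and -0.26 with 1 and 0.1 added, while the median of all genes was at -0.11 and -0.14. With single replicates left out the counts ranged 0 to 3 higher and 6 to 16 lower, and the median -0.16 to -0.054. For hemin against WT vehicle, lower members were 3 with DESeq2 and 2 to 6 with replicates left out, higher 0 throughout, and the median -0.093 to -0.038. For 4-OI against hemin, higher members were 5 with RLE, 1 with upper-quartile factors and 0 on FPKM, lower members 2 with DESeq2, 11 on FPKM and 2 over subunits only, which leaves out the assembly factors, and the median -0.11 on both FPKM scales; with replicates left out the ranges were 1 to 4, 2 to 6 and -0.084 to 0.032. Apart from subunits only, the cause was not tested. Shares of all genes called are given only for the edgeR fit over all 12 libraries with TMM scaling. The counts of the alternatives therefore have no such share beside them.

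A change of sign was looked for only among the members named in each comparison. Those of them whose sign changed were uncalled and near 0. With 4-OI against WT vehicle, Atp5g1 was at -0.088 and -0.089, Cox5a at -0.113 and -0.114 and Ndufa4 at -0.117 and -0.118 on the FPKM scales, and Cox5a at -0.004104 and Ndufa4 at -0.004117 with upper-quartile factors. With 4-OI against hemin, Atp5g1 was at -0.023 and Cox5a at -0.053 on both. With replicates left out, Irg1KO values ranged -0.089 to 0.032 for Atp5g3, -0.0097 to 0.13 for Cox5a and -0.11 to 0.015 for Cox6b1, 4-OI values -0.036 to 0.11 for Cox5a, -0.095 to 0.046 for Cox6b1 and -0.018 to 0.062 for Ndufa4, hemin values -0.046 to 0.023 for Atp5g1, -0.065 to 0.078 for Cox5a and -0.031 to 0.11 for Cox6b1, and those of 4-OI against hemin -0.029 to 0.095 for Cox5a and -0.14 to 0.0088 for Cox6b1.

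Replicate numbers did not pair the libraries (correlations -0.079 to 0.067 between same-numbered libraries). With the replicate block the counts higher and lower were 0 and 10 for Irg1KO, 2 and 11 for 4-OI, 0 and 6 for hemin, and 3 and 4 for 4-OI against hemin. Depth limits the low genes: Cox6a2 had at most 24 counts in a library, and 4 members were too low to test.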
